A study of Mus musculus with 27 samples.

Results

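The 7 microRNAs described here are the 5p arms of the miR-290 cluster, a run of hairpins on the plus strand of mouse chromosome 7. They were chosen by name, as mmu-miR-290a-5p, mmu-miR-291a-5p, mmu-miR-292-5p, mmu-miR-291b-5p, mmu-miR-293-5p, mmu-miR-294-5p and mmu-miR-295-5p (mmu marks a mouse microRNA and is left off below), and are 7 of the 2035 mature microRNA loci in each table. The cells were CJ7, a line of mouse embryonic stem (ES) cells, kept in serum with leukemia inhibitory factor. Besides wild-type cells there were 3 knockouts, Eed-/-, Ezh2-/- and Jarid2-/-. The first of the deleted genes, Eed, encodes the scaffold of the Polycomb complex PRC2, Ezh2 its main histone H3 lysine 27 methyltransferase, and Jarid2 an accessory protein that recruits the complex to chromatin. No treatment was given, and the sources used here do not state the number of clones per genotype.

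Small RNA was sequenced in 7 of the 27 samples, 1 of them Jarid2-/- and 2 from every other genotype. The deposited tables hold 1 column of counts per genotype, and whether this column combines both samples where there are 2 is not stated in the sources. The wild-type column names only the CJ7 line, the Jarid2-/- column carries the older gene name Jumonji, and the Eed-/- column writes the gene name with a leading H whose meaning no source used here explains. Because each genotype is 1 column, the spread between replicates is unknown and differences between genotypes are given without a test.

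A microRNA hairpin yields a duplex with a strand from its 5' side (5p) and a strand from its 3' side (3p). Usually 1 of these is loaded into an Argonaute protein and accumulates, while the other is degraded. The miR-290 hairpins are cut from a common primary transcript that is abundant in mouse ES cells and the early embryo. Of their 7 3p arms, 6 have AAGUGC at bases 2 to 7. That string lies within the seed and is found in the ES cell microRNAs that promote passage from G1 into S phase. The 5p arms carry other seeds and have a less well described role. A seed, bases 2 to 8, is the stretch that pairs with target messenger RNAs.

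The 7 mature sequences are shown because their seeds and their likeness to each other bear on how their reads can be told apart. Each is 22 bases long, is written 5' to 3' with the seed in capitals, and is identical in the deposited tables and in RefSeq, which calls miR-292-5p miR-292a-5p.
miR-290a-5p: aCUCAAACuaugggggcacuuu
miR-292-5p: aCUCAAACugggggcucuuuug
miR-293-5p: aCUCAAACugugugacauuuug
miR-294-5p: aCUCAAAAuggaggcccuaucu
miR-295-5p: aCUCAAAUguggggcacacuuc
miR-291a-5p: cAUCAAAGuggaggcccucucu
miR-291b-5p: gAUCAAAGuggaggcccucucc
The first 3 share the seed CUCAAAC, miR-294-5p and miR-295-5p differ from it at the last seed base, and the pair miR-291a-5p and miR-291b-5p share AUCAAAG. All 7 have UCAAA at bases 3 to 7, a string found there in 8 of the 2035 mature loci (0.393%). The other locus is miR-292b-5p, which lies on the minus strand opposite the miR-292 hairpin and shares the seed of miR-294-5p. It had 1 count in wild-type, 1 in Ezh2-/- and 0 in the other columns.

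The members lie between positions 3218640 and 3220801 of chromosome 7 on mouse build mm9. In genomic order they are miR-290a-5p (chr7:3218640-3218661), miR-291a-5p (chr7:3218933-3218954), miR-292-5p (chr7:3219201-3219222) and miR-291b-5p (chr7:3219495-3219516). Further along come miR-293-5p (chr7:3220357-3220378), miR-294-5p (chr7:3220656-3220677) and miR-295-5p (chr7:3220780-3220801). Between 12 and 16 bases separate each 5p arm from the 3p arm of its hairpin, and the GC content of the members ranges from 36.4% (miR-293-5p) to 59.1% (miR-291b-5p).

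MiR-291a-5p and miR-291b-5p differ at their first and last base only. Counted from 1 at the 5' end and with the base of miR-291a-5p first, the differences are C1G and U22C, so both share a run of 20 bases. No other pair of members shares a run longer than 10 bases, and the next closest pair, miR-291a-5p and miR-294-5p, differs at 4 positions. How the authors treated reads that match several loci is not given in the sources used here, so the split of reads between miR-291a-5p and miR-291b-5p is uncertain. Each member's full sequence occurs at 1 locus of the tables.

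The depth behind these values was 23793733 microRNA counts for wild-type and 8485806 for Jarid2-/-, with 42293019 for Eed-/- and 32074712 for Ezh2-/-. Levels are given in CPM, a locus's count relative to the sum of microRNA counts in its column, and a single count was worth between 0.0236 CPM (Eed-/-) and 0.118 CPM (Jarid2-/-). A range in parentheses is an exact 95% binomial interval for that fold or share. Only counting error enters it, because it is computed from column counts without replicates. It treats reads as independent, so where PCR copies of a molecule are counted as separate reads it is too narrow even for that error. The 7 ES cell marker microRNAs, all 3p arms of the miR-290 and miR-302 clusters, were detected in every column and summed to between 15.1% (Eed-/-) and 19.8% (Ezh2-/-) of microRNA counts. Markers of other cell types were also detected in every column, none at 0. In Jarid2-/-, 1 marker each of the fibroblast and mesenchymal, the blood and the muscle list had 3 counts or fewer. The same held for 1 blood marker in Ezh2-/-. Summed over each list, 5 fibroblast and mesenchymal markers ranged from 580.02 CPM (Ezh2-/-) to 1666 CPM (wild-type), and 5 blood markers from 2866 CPM (Jarid2-/-) to 9332 CPM (Ezh2-/-). The 3 neural markers ranged from 67.3 CPM (Jarid2-/-) to 4817 CPM (Ezh2-/-), the 3 muscle markers from 5.42 CPM (Jarid2-/-) to 36.2 CPM (Eed-/-) and the 3 epithelial markers from 1354 CPM (Eed-/-) to 5227 CPM (Jarid2-/-). The part of these cell types in the results below was not tested.

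In wild-type cells miR-290a-5p held most of the 5p counts. It had 43658 CPM, the 5th highest level of all 2035 loci, and made up 78.8% of the counts of the 7 members. MiR-293-5p followed at 5980.4 CPM, miR-292-5p at 3582 CPM and miR-291a-5p at 1768 CPM. MiR-291b-5p (274 CPM), miR-294-5p (96.5 CPM) and miR-295-5p (69.7 CPM) were the lowest, so arms of hairpins that share a transcript had very unequal levels. Adjacent levels in this order had intervals that did not overlap, but these intervals cover counting error only and not the spread between replicates.

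Summed, the 7 arms took 5.54% (5.53 to 5.55%) of the wild-type column and 6.09% (6.08 to 6.10%) of the Ezh2-/- column. The shares were 8.91% (8.90 to 8.92%) in Eed-/- and 8.98% (8.963 to 9.001%) in Jarid2-/-. Relative to wild-type the sum was 1.61-fold higher (1.604 to 1.610) in Eed-/-, 1.62-fold higher (1.616 to 1.625) in Jarid2-/- and 1.10-fold higher (1.097 to 1.102) in Ezh2-/-. This order of the mutants held for column totals and not for every scaling. With TMM factors (edgeR) the log2 fold of the sum was 0.87 in Ezh2-/-, above 0.67 in Jarid2-/- and 0.56 in Eed-/-, and with median-ratio factors (DESeq2) it was 0.65, 0.58 and 0.46. MiR-290a-5p was the largest single arm in each of these sums, at 45.8% (Eed-/-) to 85.1% (Ezh2-/-) of the counts. Without it, the other 6 arms were 4.10-fold higher (4.09 to 4.12) in Eed-/-, 3.42-fold higher (3.40 to 3.44) in Jarid2-/-, whereas in Ezh2-/- they were 1.30-fold lower (1.290 to 1.304). That last direction turned with the scaling, from a log2 fold of -0.38 to 0.35 with TMM factors, 0.14 with median-ratio factors and 0.070 with the authors' RPM denominators. For Eed-/- and Jarid2-/- the 6 arms stayed higher under the 5 other scalings, at 1.81 to 2.75 and 1.65 to 2.27. In bulk cultures such as these, fewer cells expressing a microRNA and less of it per cell cannot be told apart.

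**Figure D1:**
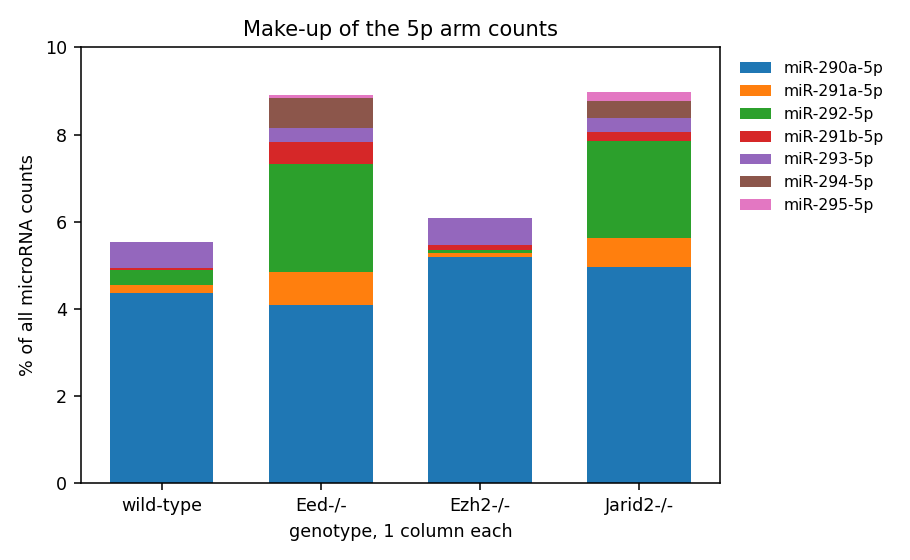
Stacked bars give each 5p arm's share of all microRNA counts, in percent, in the single column of each genotype. The bars reach 5.54% in wild-type and 6.09% in Ezh2-/-, against 8.91% in Eed-/- and 8.98% in Jarid2-/-, and the blue miR-290a-5p segment makes up most of the wild-type and Ezh2-/- bars. The bars are shares of the column total, and the mutants' order changes with TMM or median-ratio factors.

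The make-up of the 5p counts differed between the columns. MiR-290a-5p made up 85.1% of them in Ezh2-/-, 78.8% in wild-type, 55.2% in Jarid2-/- and 45.8% in Eed-/-. MiR-292-5p took 27.8% in Eed-/- and 24.9% in Jarid2-/-, against 6.46% in wild-type and 0.813% in Ezh2-/-. Eed-/- and Jarid2-/- thus resembled each other in the order of their largest arms, with miR-292-5p second in both, while miR-293-5p was second in wild-type and in Ezh2-/-.

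For each mutant, a difference of 2-fold or more from wild-type in CPM, with 1 CPM added to both levels, counted as higher or lower. Loci entered this count if 1 of the columns compared held 10 counts or more. All 7 members passed this filter in every comparison. The background counts loci, and the 2035 loci carry 1900 distinct names. In Eed-/-, 5 of the 7 were higher, against a background of 17.5% of 1096 tested loci, and 0 were lower (background 15%), where 32.5% of loci differed in either direction. In Jarid2-/-, 5 of 7 were higher against 16.3% of 950 loci, and 0 were lower (22.8%), with 39.2% differing in either direction. In Ezh2-/-, 1 was higher against 4.9% of 1000 loci and 2 were lower (24.5%), with 29.4% differing in either direction. The median log2 ratio of the members was 2.79 in Eed-/- and 2.64 in Jarid2-/-, and -0.55 in Ezh2-/-, beside medians over all tested loci of 0.08, -0.17 and -0.44. With TMM factors the members' median in Ezh2-/- turned to 0.17, beside 0.09 over all loci. The 5 members higher in Eed-/- and in Jarid2-/- were miR-291a-5p, miR-292-5p, miR-291b-5p, miR-294-5p and miR-295-5p, and both comparisons share the wild-type column.

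In each mutant a larger share of all loci named 5p than of those named 3p was higher, and a larger share was also lower. Among tested loci named 5p, 25.1% of 470 were at least 2-fold higher in Eed-/-, against 11.7% of 530 loci named 3p, the members included. The shares were 19.2% of 411 and 13.4% of 462 in Jarid2-/-, and 4.92% of 427 and 3.86% of 492 in Ezh2-/-. The shares at least 2-fold lower were 16.0% against 14.3% in Eed-/-, 24.1% against 22.7% in Jarid2-/- and 27.2% against 24.0% in Ezh2-/-. In Ezh2-/- the median log2 ratio was -0.47 for loci named 5p and -0.42 for those named 3p. The part of these wider differences in the members' values was not tested.

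**Figure D2:**
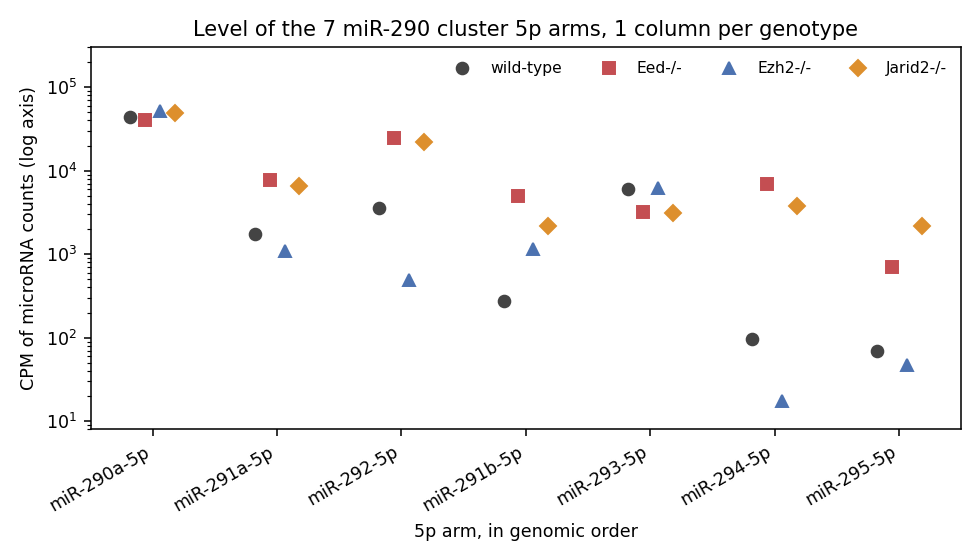
Each point is the level of a 5p arm in 1 genotype's column, in CPM on a log axis, with the arms in genomic order. Red squares (Eed-/-) and orange diamonds (Jarid2-/-) lie above wild-type and Ezh2-/- for every arm except miR-290a-5p and miR-293-5p.

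MiR-294-5p, from the hairpin whose 3p arm is among the most abundant microRNAs of ES cells, had the widest span of levels of the 7 members and the largest differences from wild-type in Eed-/- and in Jarid2-/-. Its level was 96.5 CPM in wild-type (2297 counts), 6968 CPM in Eed-/- (294687 counts), 17.5 CPM in Ezh2-/- (561 counts) and 3804 CPM in Jarid2-/- (32281 counts). It was therefore high in Eed-/- and Jarid2-/- and lowest in Ezh2-/-. Relative to wild-type it was 72.2-fold higher (69.3 to 75.2) in Eed-/-, the highest ratio of all tested loci, and 39.4-fold higher (37.8 to 41.1) in Jarid2-/-, the second highest. In Ezh2-/- it was 5.52-fold lower (5.03 to 6.06), with a log2 ratio of -2.40, or -1.70 with TMM factors. Its rank by level moved from 315th of all loci in wild-type to 24th in Eed-/- and 384th in Ezh2-/-.

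MiR-292-5p followed the same order of genotypes. It had 3582 CPM in wild-type, 24773 CPM in Eed-/-, 495 CPM in Ezh2-/- and 22355 CPM in Jarid2-/-. The level was 6.92-fold higher than wild-type (6.87 to 6.96) in Eed-/-, 6.24-fold higher (6.19 to 6.29) in Jarid2-/-, whereas in Ezh2-/- it was 7.23-fold lower (7.11 to 7.36). With TMM factors its log2 ratio in Ezh2-/- was -2.12 in place of -2.85. In Eed-/- it ranked 8th among all loci, and in Ezh2-/- 127th.

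MiR-295-5p, the last arm of the cluster, was the scarcest member in wild-type. Its level was 69.7 CPM in wild-type, 706 CPM in Eed-/-, 47.4 CPM in Ezh2-/- and 2192 CPM in Jarid2-/-, so here Jarid2-/- and not Eed-/- was highest. It was 10.1-fold higher (9.64 to 10.6) in Eed-/- and 31.4-fold higher (29.9 to 33.1) in Jarid2-/-. In Ezh2-/- the level was 1.47-fold lower (1.37 to 1.58), inside the 2-fold limit, and this direction turned with TMM factors, from a log2 ratio of -0.55 to 0.17.

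The near-identical arms miR-291a-5p and miR-291b-5p were both higher in Eed-/- and in Jarid2-/-. MiR-291a-5p had 1768 CPM in wild-type, 7743 CPM in Eed-/-, 1086 CPM in Ezh2-/- and 6611 CPM in Jarid2-/-. MiR-291b-5p had 274 CPM in wild-type, 4931 CPM in Eed-/-, 1155 CPM in Ezh2-/- and 2174 CPM in Jarid2-/-. MiR-291a-5p was 4.38-fold higher (4.34 to 4.42) in Eed-/- and 3.74-fold higher (3.69 to 3.79) in Jarid2-/-, and miR-291b-5p 18.0-fold higher (17.5 to 18.4) and 7.93-fold higher (7.70 to 8.15). In Ezh2-/- the arms parted, with miR-291a-5p 1.63-fold lower (1.61 to 1.65) and miR-291b-5p 4.21-fold higher (4.10 to 4.32). The direction of miR-291a-5p there depended on the scaling, with a log2 ratio of -0.70 for column totals, 0.03 with TMM and -0.19 with median-ratio factors, while miR-291b-5p stood at 2.80 with TMM.

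MiR-291b-5p was the only member called higher in Ezh2-/-, and with the counts of both arms added together there was none. The summed level of the pair was 2042 CPM in wild-type and 2241 CPM in Ezh2-/-. The ratio of miR-291a-5p to miR-291b-5p counts was 6.44 in wild-type, 3.04 in Jarid2-/-, 1.57 in Eed-/- and 0.940 in Ezh2-/-. The ratio of the 3p arms, miR-291a-3p to miR-291b-3p, was 38.0 in wild-type, 2.62 in Eed-/-, 2.34 in Jarid2-/- and 0.824 in Ezh2-/-. The 3p arm miR-291b-3p was 37.0-fold higher (36.1 to 37.9) in Ezh2-/-.

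The remaining members stayed within the 2-fold limit in every mutant. MiR-290a-5p had 43658 CPM in wild-type, 40802 CPM in Eed-/-, 51852 CPM in Ezh2-/- and 49549.6 CPM in Jarid2-/-, and was among the 6 most abundant loci of each column. Its highest and lowest levels differed 1.27-fold, the smallest span of the 7. Its log2 ratio in Eed-/- turned from -0.10 to 0.61 with the RPM denominators. MiR-293-5p had 5980.4 CPM in wild-type, 3164 CPM in Eed-/-, 6275 CPM in Ezh2-/- and 3134 CPM in Jarid2-/-. Unlike the 5 arms above, it was lower in Eed-/-, 1.89-fold (1.88 to 1.90), and in Jarid2-/-, 1.91-fold (1.88 to 1.93). Those values lie close to the limit, and with median-ratio scaling its log2 ratio was -1.14 in Eed-/- and -1.05 in Jarid2-/-, past it.

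**Figure D3:**
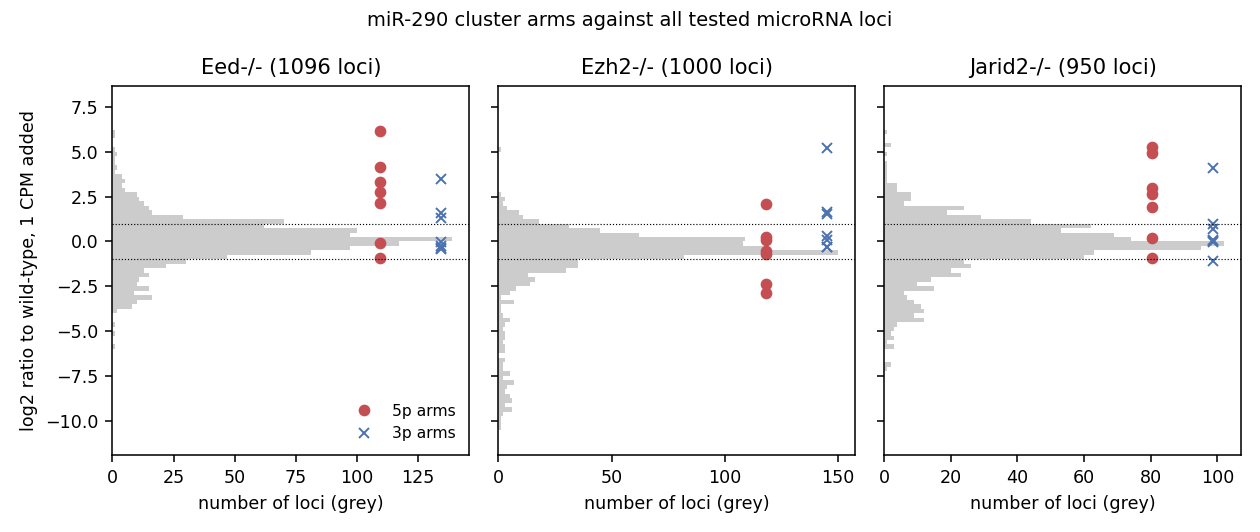
Grey bars count tested loci by their log2 ratio to wild-type (1 CPM added), red points are the 5p arms and blue crosses the 3p arms of the cluster, and dotted lines mark 2-fold. In Eed-/- and Jarid2-/- 5 red points lie above the upper line and up to 6.16 and 5.29, and in Ezh2-/- 1 lies above it and 2 below the lower line.

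The mutants were also set against each other. Between Eed-/- and Ezh2-/-, 5 members were higher in Eed-/- (background 35.7% of 1091 loci) and 0 lower (4.58%), with 40.3% differing in either direction. With TMM factors miR-290a-5p (-1.20) and miR-293-5p (-1.84) were lower on the log2 scale. MiR-294-5p differed 398-fold (366.7 to 433.5) and miR-292-5p 50.0-fold (49.2 to 50.8). Between Jarid2-/- and Ezh2-/-, 4 were higher in Jarid2-/- (33% of 930 loci) and 1 lower (8.92%), with 41.9% differing in either direction. There miR-294-5p differed 217-fold (200.1 to 237), miR-295-5p 46.2-fold (43.9 to 48.7) and miR-292-5p 45.1-fold (44.4 to 45.9). The lower one was miR-293-5p at a log2 ratio of -1.002, a call lost under 3 of 7 alternatives, such as -0.95 with the authors' RPM denominators.

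Jarid2-/- and Eed-/- lay closer to each other than either lay to Ezh2-/- for miR-291a-5p, miR-292-5p, miR-293-5p, miR-294-5p and miR-295-5p. Between these 2 mutants 5 of 7 members were within 2-fold, near the background of 793 of 1073 tested loci. Over all tested loci this pair also differed least, with 26.1% called either way. Against Ezh2-/- it was 40.3% for Eed-/- and 41.9% for Jarid2-/-. MiR-295-5p was 3.10-fold higher (3.05 to 3.16) in Jarid2-/-, against a background of 7.18% of 1073 loci higher, and miR-291b-5p 2.27-fold lower (2.23 to 2.30), against 18.9% lower and 26.1% in either direction. MiR-293-5p differed least, 1.0098-fold (0.9966 to 1.0232), an interval that includes equal levels.

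Within a column, the ratio of the arms of a hairpin does not depend on how columns are scaled. To show where the 5p arm lies, the hairpins at both ends of this range are printed from RefSeq (build GRCm38.p6, plus strand) with the 5p arm in capitals, Mir290a at chr7:3218626-3218708 and Mir294 at chr7:3220641-3220724.
Mir290a: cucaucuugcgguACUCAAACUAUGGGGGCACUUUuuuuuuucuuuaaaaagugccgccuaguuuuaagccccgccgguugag
Mir294: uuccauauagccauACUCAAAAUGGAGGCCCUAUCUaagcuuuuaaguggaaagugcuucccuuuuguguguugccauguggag
The 5p arm made up 99.1% (99.08 to 99.12%) of the arm counts of miR-290a in wild-type, and 0.0631% (0.0606 to 0.0658%) of those of miR-294. MiR-290a stayed at 97.7% to 98.4% in the mutants. It was the one hairpin in which the 5p arm was dominant in every column.

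In the miR-294 hairpin the 5p share was 5.69% (5.67 to 5.71%) in Eed-/-, 2.45% (2.43 to 2.48%) in Jarid2-/- and 0.0106% (0.00975 to 0.0115%) in Ezh2-/-. The 3p arm of that hairpin had 152826 CPM in wild-type, 115428 CPM in Eed-/-, 164809 CPM in Ezh2-/- and 151279 CPM in Jarid2-/-, so it stayed within 1.43-fold over the columns while the 5p arm spanned 398-fold. In the miR-295 hairpin the 5p share was 0.419% in wild-type and 0.231% in Ezh2-/-, against 4.78% in Eed-/- and 11.5% in Jarid2-/-. Its 3p arm spanned 1.46-fold and its 5p arm 46.2-fold.

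The miR-291a hairpin had 14.8% of its counts on the 5p arm in wild-type and 11.7% in Ezh2-/-, against 49.5% in Eed-/- and 38.2% in Jarid2-/-, so that in Eed-/- both arms were about equal in count. In the miR-292 hairpin the 5p share was 11.8% in wild-type and 0.577% in Ezh2-/-, against 23.6% in Eed-/- and 33.9% in Jarid2-/-. Here the 3p arm was higher in Ezh2-/- than in wild-type (85326 against 26769 CPM) while the 5p arm was lower. The miR-291b hairpin had its 5p share at 50.5% in wild-type and 10.4% in Ezh2-/-, against 62.1% in Eed-/- and 32.2% in Jarid2-/-. In the miR-293 hairpin the share stayed between 2.31% (Eed-/-) and 5.46% (Ezh2-/-). Over all 7 hairpins the 5p share was 13.9% in wild-type and 13.3% in Ezh2-/-, against 20.0% in Eed-/- and 23.5% in Jarid2-/-.

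**Figure D4:**
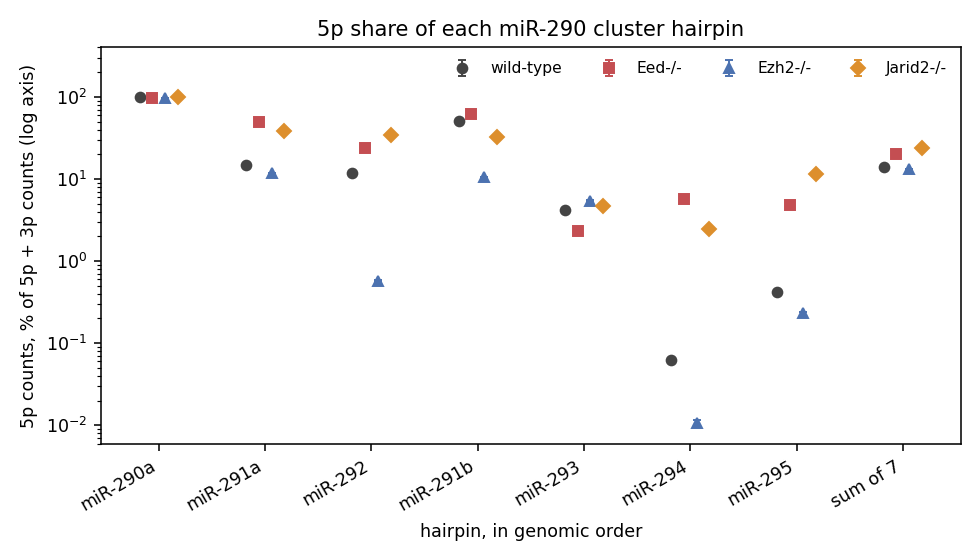
Points give the 5p counts as a percent of the 5p plus 3p counts of each hairpin, on a log axis, with exact 95% intervals for counting error that are mostly smaller than the symbols. The miR-290a points lie above 97% in all 4 columns, and the miR-294 points run from 0.0106% (Ezh2-/-) to 5.69% (Eed-/-).

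The change of the 5p to 3p ratio was set beside that of all hairpin loci with at least 10 counts on both arms in both columns. In Eed-/- the ratio moved at least 2-fold toward 5p in 4 of the 7 cluster hairpins, against 27.9% of 290 hairpins, and toward 3p in 1 (12.8%), where 40.7% moved either way. The 4 were miR-294 (95.6-fold, the largest of the 290), miR-295 (11.9-fold), miR-291a (5.67-fold) and miR-292 (2.31-fold), and miR-290a moved 2.63-fold toward its scarce 3p arm. In Jarid2-/- 4 moved toward 5p (30.7% of 241) and 1 toward 3p (12.9%), where 43.6% moved either way. The shifts were 39.8-fold for miR-294, 30.9-fold for miR-295, 3.84-fold for miR-292 and 3.57-fold for miR-291a, and miR-291b moved 2.15-fold toward 3p.

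In Ezh2-/- the movement was toward 3p. It was 2-fold or more in 4 of the 7 cluster hairpins, against 15.3% of 242 hairpins, and 0 moved toward 5p (12.8%), where 28.1% moved either way. The miR-292 hairpin moved 23.1-fold, the largest shift toward 3p of the 242, miR-291b 8.78-fold, miR-294 5.95-fold and miR-290a 2.46-fold. The median log2 change over the 7 hairpins was 1.21 in Eed-/-, 1.84 in Jarid2-/- and -1.30 in Ezh2-/-, beside 0.29, 0.34 and 0.17 over the hairpins outside the cluster.

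**Figure D5:**
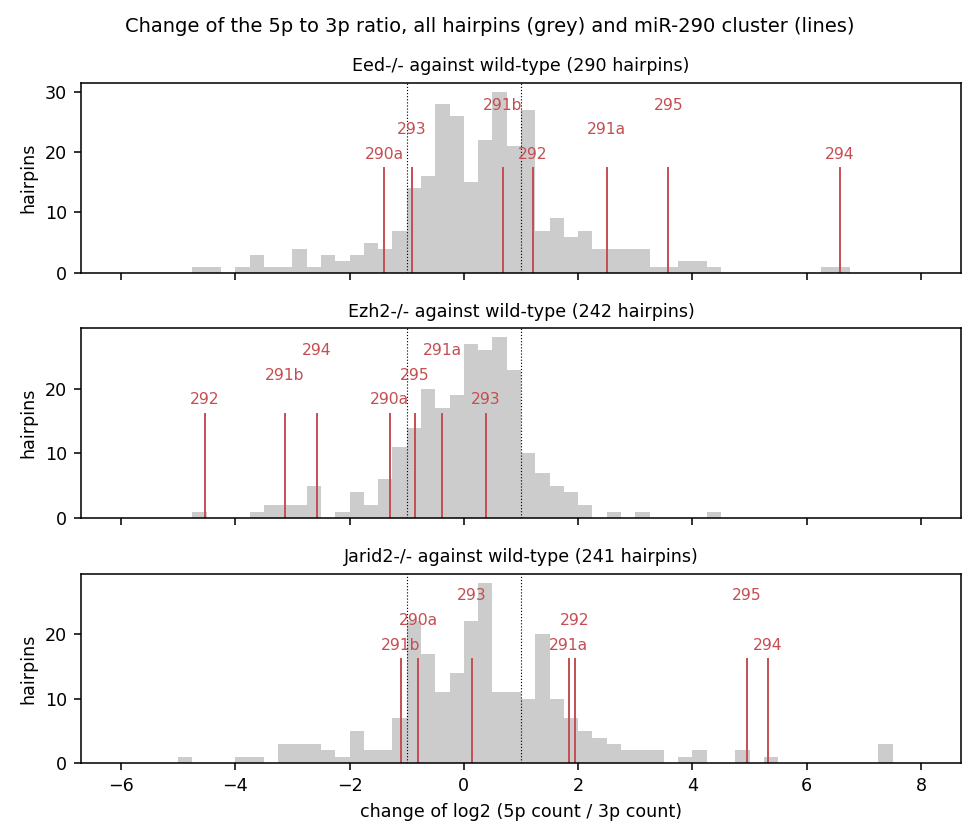
Grey bars count hairpins by the change of log2 (5p count / 3p count) against wild-type, red lines mark the 7 miR-290 cluster hairpins by number, and dotted lines mark 2-fold. The line of 294 stands at 6.58 in Eed-/- and 5.32 in Jarid2-/- and at -2.57 in Ezh2-/-.

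Large arm shifts were also present outside the cluster. In Eed-/-, among hairpins with at least 50 counts on each arm in both columns, miR-93 moved 19.5-fold toward 5p and miR-299b 26.2-fold toward 3p. In Ezh2-/- the ends were miR-221, 19.2-fold toward 5p, and miR-6540, 9.78-fold toward 3p. In Jarid2-/- the 3 loci of miR-124 moved 158- to 164-fold toward 5p and miR-19a moved 8.31-fold toward 3p. The miR-124 loci had nearly equal counts and are not separate observations. With the limit at 10 counts in place of 50, some hairpins outside the cluster moved further. In Eed-/- miR-7b moved toward 5p by a log2 change of 6.34, beside 6.58 for miR-294. Toward 3p, miR-466f moved by -3.68 in Ezh2-/- and miR-669b by -4.78 in Jarid2-/-.

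The 5p arms of the miR-302 cluster, another microRNA cluster known from ES cells, were read from a list chosen alongside the members. Of its 5 arms, 3 were higher and 0 lower in Eed-/-, beside 17.5% and 15% of all tested loci. In Jarid2-/- 4 were higher and 0 lower, beside 16.3% and 22.8%. Of these 4, miR-367-5p rested on 24 counts in Jarid2-/- against 12 in wild-type. In Ezh2-/- 0 were higher and 1 lower, beside 4.9% and 24.5%, so that the 1 lower arm was near the background. MiR-302d-5p had 26.7 CPM in wild-type, 224 CPM in Eed-/-, 42.7 CPM in Ezh2-/- and 229 CPM in Jarid2-/-. The median log2 ratio of the 5 arms was 1.16 in Eed-/- (0.08 over all loci), 2.23 in Jarid2-/- (-0.17) and -0.25 in Ezh2-/- (-0.44).

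Loci outside the 7 hairpins were ranked by the likeness of their profile over the 4 columns to that of a member, as the root-mean-square difference of centred log2 CPM (1 CPM added) among 734 loci with at least 100 counts in 1 column. MiR-290a-5p, whose levels differed less than 2-fold, was left out. The nearest to miR-293-5p were miR-34a-5p (difference 0.126) and miR-30d-5p (0.145). MiR-34a-5p had 11211 CPM in wild-type, 4929 CPM in Eed-/-, 10641 CPM in Ezh2-/- and 4678 CPM in Jarid2-/-. The nearest to miR-291a-5p were 2 chromosome 2 loci of miR-466f-5p (0.105 for both), with 41 counts each in wild-type, 375 and 374 in Eed-/-, 15 each in Ezh2-/- and 65 each in Jarid2-/-. Their near-equal counts do not make separate observations.

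Likeness was weaker for the other members. The nearest to miR-294-5p were miR-466o-3p (0.860) and miR-669b-3p (1.34), to miR-292-5p miR-467h (0.755) and miR-669b-3p (0.822), to miR-295-5p miR-5099 (0.477) and miR-669b-3p (0.492), and to miR-291b-5p miR-130c (0.597) and miR-672-5p (0.625). MiR-466o-3p had 11.7 CPM in wild-type, 411 CPM in Eed-/-, 4.15 CPM in Ezh2-/- and 843 CPM in Jarid2-/-, so its highest level was in Jarid2-/- where that of miR-294-5p was in Eed-/-. MiR-669b-3p had 22 counts in wild-type (0.92 CPM) and 6 in Ezh2-/- (0.19 CPM). Both levels lie below the 1 CPM added, which compresses its profile. With 4 columns the likenesses described here cover the columns only.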

How the data were processed

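Per the labels' protocols, RNA of 18 to 40 nucleotides was selected on a gel, and SOLiD small RNA libraries were sequenced. Cutadapt, Bowtie and mm9 appear in the submitters' processing notes. No source used here gives their versions, the settings or the handling of reads matching several loci. Per the file headers, each deposited table gives the count of reads per mature locus of miRBase release 20 and, beside it, RPM. Dividing count by RPM gave denominators of 246316316 (wild-type), 267248746 (Eed-/-), 243895676 (Ezh2-/-) and 62259756 (Jarid2-/-), of which microRNA counts were 9.66%, 15.8%, 13.2% and 13.6%.

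Each column's name gave its genotype. CPM relates the deposited count to the column's sum of microRNA counts. Log2 ratios had 1 CPM added, which understates differences of low loci. Folds had nothing added. The 95% interval of a fold is the exact binomial one conditional on the summed count, that of a share is Clopper-Pearson's (scipy 1.17.1). Arms were paired by name, strand and position. Alternatives used edgeR's TMM (4.0.16), DESeq2's median ratios (1.42.0), the RPM denominators, totals without the 7 hairpins or without the Gtl2-Rian-Mirg loci, other pseudocounts (0.1 and 10 CPM) and other filters (1 and 100 counts). The ratio and interval computations were tested on simulated counts. The members, lists and tests were chosen with earlier results of these data known. Named microRNAs are the 7 members, their 3p arms, the miR-302 cluster 5p arms, the 2 nearest profiles per member spanning at least 2-fold, and the hairpins outside the cluster with the largest arm shifts (3 at each end, of which the text gives the extremes). Hairpins with larger shifts at the limit of 10 counts were named after the results were known. Chromatin, messenger RNA and other small RNA data were not analysed here.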

Additional observations from a re-analysis of the deposited data

Results flagged for a closer look

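MiR-292-5p and miR-294-5p were called in opposite directions against wild-type, higher in Eed-/- and Jarid2-/- and lower in Ezh2-/-. Over all tested loci 17.5% were higher in Eed-/-, 16.3% higher in Jarid2-/- and 24.5% lower in Ezh2-/-. The 28.6% of members lower in Ezh2-/- was thus near the background. The share of all loci called in such opposite directions was not computed. For miR-294-5p the log2 ratio in Eed-/- exceeded that in Ezh2-/- by 8.56, and that in Jarid2-/- exceeded it by 7.69. For miR-292-5p the same differences were 5.64 and 5.49. These differences were not tested, since each genotype has 1 column and the 3 comparisons share the wild-type column.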

How the results depend on the processing

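Against wild-type, the called members kept their calls in 117 of 117 values over the alternatives, and between mutants in 81 of 84. The alternatives between mutants were not planned beforehand. The values against wild-type, called or not, include those under the other count filters. Such filters leave a member's log2 ratio unchanged, so the values under them could not alter a call and say nothing about robustness. Of the uncalled values, 3 of 72 against wild-type and 7 of 63 between mutants became calls. Between mutants these were miR-290a-5p (-1.20 with TMM, -1.08 with median-ratio factors) and miR-293-5p (-1.84, -1.73, and -1.03 without the 7 hairpins), lower in Eed-/- than in Ezh2-/-, and miR-294-5p, lower in Jarid2-/- than in Eed-/- (-1.09 with RPM denominators, -1.03 without the 7 hairpins). No paired analysis was possible because each genotype has 1 column, which also left no replicate to leave out. MiR-293-5p became called lower in Eed-/- with TMM and with median-ratio factors (members lower 1 in place of 0) and in Jarid2-/- with median-ratio factors (also 1). With miR-291a-5p and miR-291b-5p summed, 0 members were higher in Ezh2-/-.

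The log2 fold of the summed 5p level was above 0 under all 5 other scalings, but the order of the mutants was not kept: Ezh2-/-, lowest with column totals, was highest with TMM and median-ratio factors. For Eed-/- (0.68) it was 0.56 with TMM, 0.46 with median-ratio factors, 1.40 with RPM denominators, 0.80 without the 7 hairpins in the totals and 0.62 without the Gtl2-Rian-Mirg loci. In the same order it was 0.87, 0.65, 0.58, 0.29 and 0.065 for Ezh2-/- (0.14), and 0.67, 0.58, 1.19, 0.66 and 0.63 for Jarid2-/- (0.70). Without the miR-291 pair it was 0.52 in Eed-/- and 0.60 in Jarid2-/-. Without miR-290a-5p it was 2.04 in Eed-/-, 1.77 in Jarid2-/- and -0.38 in Ezh2-/-, where the direction turned. For those 6 arms, scalings added after seeing the data gave 0.35 (TMM), 0.14 (median-ratio) and 0.070 (RPM denominators) in Ezh2-/-, the opposite direction. In Ezh2-/- miR-291a-5p (0.03) and miR-295-5p (0.17) also changed direction with TMM, as did miR-290a-5p in Eed-/- with RPM denominators (0.61) and without the 7 hairpins (0.020), and miR-293-5p in Ezh2-/- without the Gtl2-Rian-Mirg loci (-0.0024).

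The 5p share over the hairpins was 13.9%, 18.2%, 13.4% and 22.6% in wild-type, Eed-/-, Ezh2-/- and Jarid2-/- without miR-291a and miR-291b, 22.6%, 25.5%, 20.7% and 37.9% without miR-294, and 11.8%, 23.6%, 5.46% and 32.2% as the median over hairpins.

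The scaling moved the median log2 ratio of all loci in Ezh2-/- from -0.44 to 0.09 with TMM, in Eed-/- from 0.08 to 0.46 and in Jarid2-/- from -0.17 to 0.20 with RPM denominators. Loci higher and lower were then 144 and 163, 350 and 106, and 253 and 176, in place of 49 and 245, 192 and 164, and 155 and 217. With median-ratio factors they were 110 and 189 in Ezh2-/- and 130 and 194 in Eed-/-, and with RPM denominators 93 and 185 in Ezh2-/-. Between mutants, 390 loci were higher and 50 lower in Eed-/- than in Ezh2-/- (240 and 188 with TMM, 272 and 160 with median-ratio factors), and 307 higher and 83 lower in Jarid2-/- than in Ezh2-/- (219 and 201, 231 and 180). Set against the all-locus median, that of the members stood at 2.62 to 3.04 in Eed-/- and 2.77 to 2.93 in Jarid2-/- over the scalings. In Ezh2-/- it stood at -0.12 to 0.08. A scaling shifts all ratios of a comparison by nearly the same amount. These differences were thus bound to change little and say nothing about robustness.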
